A study of Homo sapiens with 6 samples.

Results

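Ribosomes are assembled in the nucleolus. There RNA polymerase I transcribes a long precursor, and many assembly proteins fold, modify and cut it into the 18S, 5.8S and 28S RNAs of the 2 ribosomal subunits. The genes examined here encode a set of these nucleolar assembly proteins and were chosen by symbol, with earlier results of these data known. They comprise the NOP, UTP, RRP and NOL genes with a number after the prefix, the NOC genes, IMP3 and IMP4, and a fixed set of further factors such as NOB1, RRS1, BOP1, PES1, DKC1, FBL and DDX10. The rule found 51 of the 18417 genes that the annotation of the array names through probes of 1 symbol. These 51 genes were read by 55 probes, because BOP1, GPATCH4, NHP2 and SDAD1 have 2 each.

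U373MG cells, an established human glioblastoma line, were exposed for 24 hours to ET-770 at 4.83 nM, to its pyridinecarbonyl derivative ET-770-DR at 1.70 nM, or to renieramycin M (RM) at 3.10 nM, and each exposure had cells treated with an equal volume of the vehicle DMSO. All 3 compounds are tetrahydroisoquinoline alkaloids of marine origin. Each dose was the IC50 of its compound, which the study determined with a treatment longer than the 24 hours used here. The 3 experiments were independent, and each gave 1 array for the compound and 1 for its own DMSO control, 6 Human Gene 1.0 ST arrays in all. No array was repeated within an experiment.

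The deposited values are signals on a log2 scale, so that a difference of 1 is a doubling, and a level of one gene cannot be set against that of another. The medians over all probes were 7.30 with ET-770 and 7.28 with its DMSO, 6.65 with ET-770-DR and 6.68 with its DMSO, and 6.77 with RM and 6.63 with its DMSO. Values were therefore compared within an experiment, each compound against its own DMSO array, and they are listed throughout in the order ET-770, ET-770-DR, RM. Of the glial and mesenchymal markers, VIM was read at 12.72 to 13.56, CD44 at 12.19 to 13.40, NES, EGFR and S100B at 7.30 to 10.54, the astrocyte filament gene GFAP at 6.66 to 7.72 and CHI3L1 at 5.98 to 7.12. Of the markers of other cells, PTPRC, PECAM1 and EPCAM lay between 3.41 and 4.89, KRT5 between 5.45 and 6.47, CDH5 between 5.92 and 8.07 and CD68 between 9.49 and 11.23. These signals are given per gene over the 6 arrays, and the presence or absence of a marker was not tested. Only the response that the 3 compounds shared could be tested, with the compounds as replicates of each other (n = 3 pairs). The test was limma with the experiment as a block, and its p-values were adjusted over all 18417 genes with a threshold of 0.05.

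Of the 51 genes, 24 rose in the shared response, 3 fell and 24 did not pass the test. The 24 that rose make up 47.1% of the set, where 13.1% of all genes on the array rose. The latter share includes dim genes. When only the 9208 genes above the median level were tested, 2578 of them rose, 27 members among them. The 3 that fell, DDX10, NOL10 and UTP20, make up 5.88% of the set, where 11.2% of all genes fell. The median of the mean log2 change was 0.43 over the set and 0.03 over all genes. At an unadjusted p under 0.05, 35 of the 51 genes were higher and 3 lower, where 19.4% and 14.4% of all genes were. The count rested in part on single experiments: 14 genes rose without the ET-770 experiment, 13 without the ET-770-DR experiment and 39 without the RM experiment. The share of all genes that rose moved in the same direction, to 6.52%, 8.58% and 19.0%. With treatment alone in the limma fit and no block, 0 rose and 0 fell (3 and 2 at an unadjusted p under 0.05), where 0.141% of all genes rose and 2.00% fell. In bulk RNA, a lower output of each cell and a loss of cells that express a gene cannot be told apart.

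**Figure D1:**
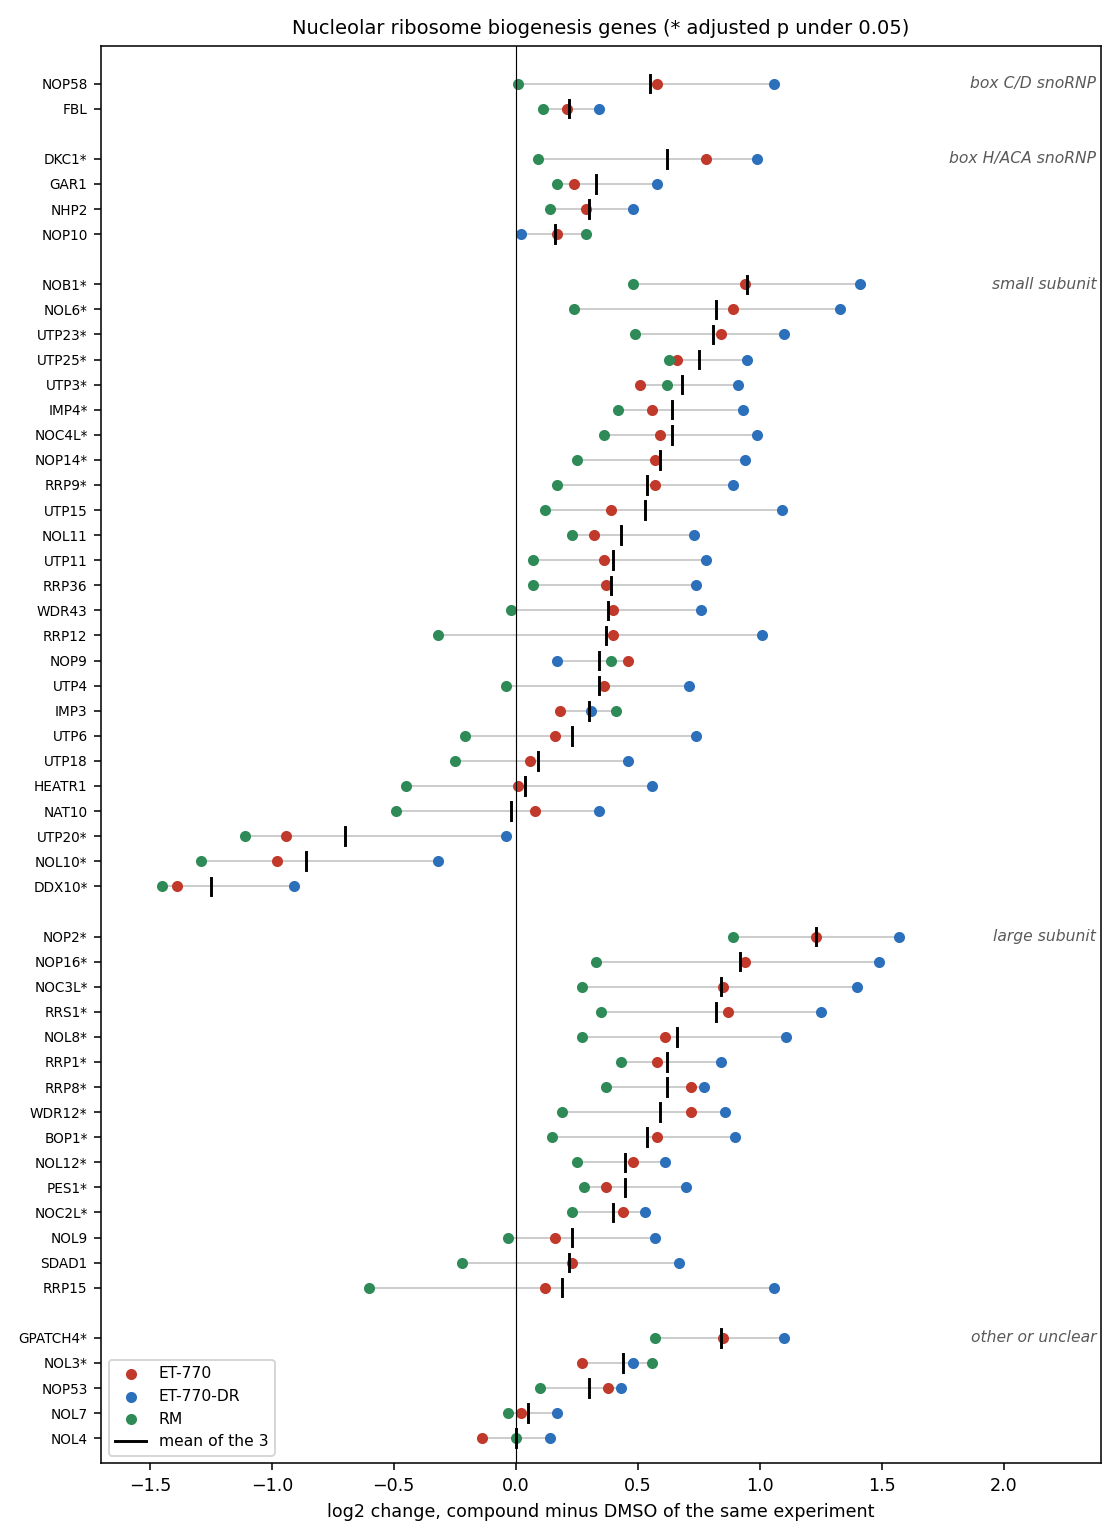
Log2 change of each of the 51 genes, as the compound array minus the DMSO array of the same experiment (x axis), with the genes grouped by role and ordered by their mean (y axis). Coloured points are the 3 compounds with 1 array pair each, black ticks are their mean, and asterisks mark genes past an adjusted p of 0.05 by limma. ET-770-DR lies farthest to the right for most genes and RM farthest to the left.

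The promoters of these genes are shown first, since they were not used to choose the set. An E-box, the palindrome CACGTG, is the element that MYC with its partner MAX and other basic helix-loop-helix factors are known to bind, and many ribosome biogenesis genes are known as MYC targets. RefSeq promoters of GRCh38.p14, each running from 250 bases before to 50 bases after the transcription start, were at hand for 45 of the 51 genes. An E-box lay in 18 of these 45 promoters (40.0%), where 8.9% of 14237 promoters of genes on the array held one. Within 50 bases of the start on either side, 16 of the 45 (35.6%) held one, where the share over the array was 3.5%. No test was made of this difference. The GC box GGGCGG, searched on both strands, was in 68.9% of the promoters of the set and 60.0% of all, the CCAAT motif on either strand in 37.8% and 36.3%, and the median GC content was 62.7% and 63.0%. The larger part of the set had no E-box in its promoter.

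The windows of 100 bases around the start are printed for genes with and without an E-box among those that rose, fell or did not pass, 5′ to 3′ on the strand of the gene, with the E-box in capitals. NOP2 (chr12:6568242-6568341, minus strand), NOC3L (chr10:94362890-94362989, minus), NOL6 (chr9:33473875-33473974, minus), UTP25 (chr1:209827922-209828021, plus), RRP9 (chr3:51941855-51941954, minus) and NOL8 (chr9:92325301-92325400, minus) rose and hold an E-box. FBL (chr19:39846330-39846429, minus) and NAT10 (chr11:34105579-34105678, plus) hold one and did not pass the test, and UTP20 (chr12:101280055-101280154, plus) holds one and fell. NOB1 (chr16:69754877-69754976, minus) rose and DDX10 (chr11:108665019-108665118, plus) fell, and neither holds the motif in the window.
NOP2: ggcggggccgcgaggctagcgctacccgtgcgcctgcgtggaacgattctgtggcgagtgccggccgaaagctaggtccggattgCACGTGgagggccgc
NOC3L: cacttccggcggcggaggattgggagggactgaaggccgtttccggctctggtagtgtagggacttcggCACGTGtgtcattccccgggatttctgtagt
NOL6: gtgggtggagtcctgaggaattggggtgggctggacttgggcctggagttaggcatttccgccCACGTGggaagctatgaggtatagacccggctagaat
UTP25: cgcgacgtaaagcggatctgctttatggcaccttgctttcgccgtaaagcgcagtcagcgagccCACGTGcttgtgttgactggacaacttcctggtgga
RRP9: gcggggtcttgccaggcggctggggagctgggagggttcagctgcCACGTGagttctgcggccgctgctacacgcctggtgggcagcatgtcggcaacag
NOL8: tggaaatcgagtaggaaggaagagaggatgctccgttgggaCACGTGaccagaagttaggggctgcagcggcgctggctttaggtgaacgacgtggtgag
FBL: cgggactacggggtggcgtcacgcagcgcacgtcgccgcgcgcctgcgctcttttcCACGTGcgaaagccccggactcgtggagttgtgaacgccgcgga
NAT10: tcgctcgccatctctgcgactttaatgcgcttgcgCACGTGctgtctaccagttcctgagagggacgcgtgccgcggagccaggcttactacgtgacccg
UTP20: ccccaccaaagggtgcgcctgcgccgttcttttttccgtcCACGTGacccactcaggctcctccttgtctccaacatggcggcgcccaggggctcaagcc
NOB1: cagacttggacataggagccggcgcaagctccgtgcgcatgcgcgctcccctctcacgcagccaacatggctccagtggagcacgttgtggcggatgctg
DDX10: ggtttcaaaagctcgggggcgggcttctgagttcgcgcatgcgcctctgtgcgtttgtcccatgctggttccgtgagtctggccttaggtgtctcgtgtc

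Counted from the start as position 1, the E-box begins at position 14 in NOL6, 15 in UTP25, 20 in NOC3L and 36 in NOP2. It begins at position 7 in FBL, and before the start at -5 in RRP9, -9 in NOL8, -10 in UTP20 and -15 in NAT10. An E-box lay in 9 of the 21 promoters of genes that rose (42.9%) and in 8 of the 22 of genes that did not pass (36.4%). Of the fallen genes with a promoter sequence, 1 of 2 held it. Over the members, the 16 genes with an E-box within 50 bases of the start had a median mean change of 0.50 and the 29 without had 0.40. Over all genes on the array with a promoter sequence, 20.4% of the 501 with such an E-box rose and 12.4% fell, where 13.1% of the 13736 without rose and 12.1% fell. The motif was found in members that rose, in members that did not pass and in 1 that fell.

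The large subunit factors made up the group in which the rise was most frequent, with 12 of 15 genes risen, 0 fallen and a median mean change of 0.59. DDX10, which fell, was moved from this group to the small subunit group after its values were seen, so that the count of 0 depends on that placement. The count of 12 of 15 also depends on where other genes were placed. NOP53, for one, did not pass and was placed in the group of other or unclear role. The count of risen large subunit factors was 6 without the ET-770 experiment, 6 without the ET-770-DR experiment and 15 without the RM experiment. NOP2, the methyltransferase of a cytosine in the 28S RNA, had the highest mean change of all 51 genes. Its signal was 10.70, 10.37 and 10.18 with ET-770, ET-770-DR and RM, against 9.47, 8.80 and 9.29 on the DMSO arrays of these experiments. Each compound array stood above the DMSO array of its own experiment. The folds were 2.35, 2.98 and 1.85, and the mean log2 change was 1.23 (SE 0.15, adjusted p = 0.00036 by limma). With ET-770, NOP2 alone of the members was over 2-fold.

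NOP16, a protein of the pre-60S particle, read 8.78, 8.29 and 8.99 with the compounds, against 7.84, 6.80 and 8.66 with DMSO. Each compound array was above its own DMSO array, though as deposited the DMSO array of the RM experiment was above the ET-770-DR array. Its mean log2 change was 0.92 (SE 0.20, adjusted p = 0.0073 by limma), with 1.49 in the ET-770-DR experiment and 0.33 in the RM experiment. NOC3L, whose yeast counterpart travels with Noc2 on the pre-60S particle, read 9.81, 10.11 and 9.68 with the compounds, against 8.96, 8.71 and 9.41 with DMSO. It rose by a mean of 0.84 (SE 0.19, adjusted p = 0.011). RRS1, which brings the 5S RNA particle into the large subunit, read 10.23, 10.75 and 9.91 with the compounds, against 9.36, 9.50 and 9.56 with DMSO. Its mean change was 0.82 (SE 0.17, adjusted p = 0.0061). NOL8 read 9.59, 9.70 and 9.62 with the compounds, against 8.98, 8.59 and 9.36 with DMSO, and rose by 0.66 (SE 0.16, adjusted p = 0.016). Without the ET-770-DR experiment its change was 0.44 (adjusted p = 0.083).

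PES1, BOP1 and WDR12 form the PeBoW complex, which is needed to process the precursor of the 28S and 5.8S RNAs. All 3 rose, by 0.45 (adjusted p = 0.034), 0.54 (adjusted p = 0.030) and 0.59 (adjusted p = 0.019), and all 3 were higher with every compound. BOP1 averaged 10.45, 9.79 and 9.75 over its 2 probes with the compounds, against 9.87, 8.89 and 9.59 with DMSO. Its probes moved alike, by 0.59, 0.97 and 0.19 for the one and 0.57, 0.82 and 0.12 for the other. None of the 3 kept the call without the ET-770 experiment or without the ET-770-DR experiment, where the adjusted p was 0.17 and 0.20 for PES1, 0.13 and 0.17 for BOP1, and 0.13 and 0.088 for WDR12. RRP1, RRP8 (the methyltransferase of an adenine in the 28S RNA), NOL12 and NOC2L complete the risen genes of this group, with mean changes of 0.40 to 0.62. Without the ET-770 experiment RRP8 (adjusted p = 0.085), NOL12 (0.27) and NOC2L (0.37) did not pass, and NOL12 (0.15) and NOC2L (0.19) did not without the ET-770-DR experiment. SDAD1, NOL9 (an RNA kinase of the spacer between the rRNAs) and RRP15 did not pass. The SDAD1 probes changed by 0.30, 0.87 and -0.34, and by 0.16, 0.46 and -0.11, and the first of them read 4.84 to 6.03 on the 6 arrays. The mean change of SDAD1 was 0.22 (SE 0.17, adjusted p = 0.43).

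The small subunit factors were more divided, with 9 of 25 genes risen, 3 fallen and a median mean change of 0.39. The risen count was 7, 6 and 17 without the ET-770, the ET-770-DR and the RM experiment. NOB1, the endonuclease that makes the final cut at the 3′ end of the 18S RNA, read 11.53, 11.11 and 10.41 with the compounds, against 10.59, 9.70 and 9.93 with DMSO. Each compound array exceeded its own DMSO array, and as deposited the lowest compound array lay just under the highest DMSO array. The mean log2 change was 0.95 (SE 0.17, adjusted p = 0.0033), and the folds were 1.92, 2.66 and 1.40. NOL6, the counterpart of yeast Utp22, read 10.15, 9.64 and 9.43 with the compounds, against 9.26, 8.31 and 9.19 with DMSO. Its mean change was 0.82 (SE 0.19, adjusted p = 0.011 by limma).

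UTP23, a factor for release of the snR30 RNA in yeast, read 10.23, 10.34 and 9.73 with the compounds, against 9.39, 9.24 and 9.25 with DMSO. Each compound array stood above its own DMSO array, and UTP23 rose by 0.81 (SE 0.14, adjusted p = 0.0030 by limma). UTP25 read 9.63, 9.36 and 9.40 with the compounds, against 8.96, 8.41 and 8.77 with DMSO, and rose by 0.75 (SE 0.13, adjusted p = 0.0024). It was one of the more even responses, with folds of 1.58, 1.93 and 1.54. UTP3 read 8.88, 9.03 and 11.08 with the compounds, against 8.37, 8.13 and 10.45 with DMSO. Both arrays of the RM experiment stood well above the other 4, while the differences within the experiments were 0.51, 0.91 and 0.62, and UTP3 rose by 0.68 (SE 0.13, adjusted p = 0.0043).

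IMP4, which bridges the U3 RNA and the precursor, read 11.23, 10.74 and 11.29 with the compounds, against 10.67, 9.81 and 10.87 with DMSO, and rose by 0.64 (SE 0.14, adjusted p = 0.0083). Its partner in this complex, IMP3, changed by 0.18, 0.31 and 0.41 and did not pass. NOC4L, which works as a pair with NOP14, read 9.13, 8.42 and 8.54 with the compounds, against 8.54, 7.43 and 8.18 with DMSO, and rose by 0.64 (SE 0.15, adjusted p = 0.010). The call was lost without the ET-770-DR experiment (0.47, adjusted p = 0.057). NOP14 itself rose by 0.59 and RRP9, a U3 particle protein, by 0.54. Neither passed without the ET-770 experiment (adjusted p = 0.068 and 0.13) or without the ET-770-DR experiment (adjusted p = 0.11 and 0.16). Of the members that link transcription by RNA polymerase I to early processing, HEATR1, UTP4, UTP15, WDR43 and NOL11, none passed. Their mean changes were 0.04, 0.34, 0.53, 0.38 and 0.43, with UTP15 (adjusted p = 0.058 by limma) and NOL11 (0.051) near the threshold. These members are not the whole group. WDR75, outside the set, rose by 0.47 (adjusted p = 0.043). It did not pass without the ET-770 experiment (0.20) or without the ET-770-DR experiment (0.24).

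**Figure D2:**
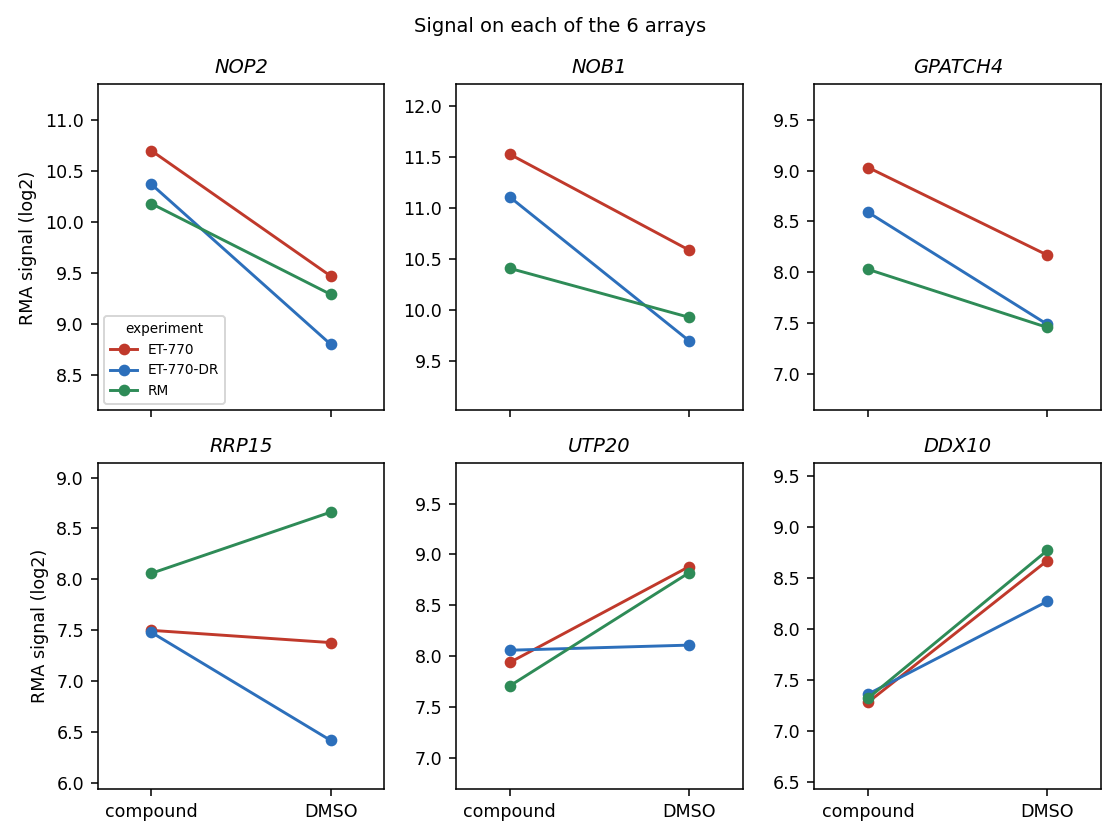
RMA signal (log2, y axis) of 6 genes on the compound array and the DMSO array (x axis) of each of the 3 experiments, each line joining the 2 arrays of an experiment. Each panel spans the same range of log2 units. NOP2, NOB1 and GPATCH4 were higher on every compound array than on its own DMSO array, UTP20 and DDX10 were lower, and RRP15 was higher with ET-770 and ET-770-DR and lower with RM.

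The 3 genes that fell stand with the small subunit factors, DDX10 by the placement named above. DDX10, an RNA helicase whose yeast counterpart Dbp4 acts in the release of the U14 RNA, read 7.28, 7.36 and 7.32 with the compounds, against 8.67, 8.27 and 8.77 with DMSO. Each compound array lay below the DMSO array of its own experiment. The folds were 0.382, 0.531 and 0.366, and the mean log2 change was -1.25 (SE 0.14, adjusted p = 0.00025 by limma). NOL10, the counterpart of yeast Enp2, read 8.74, 8.79 and 8.58 with the compounds, against 9.72, 9.10 and 9.87 with DMSO. It fell by 0.86 on the log2 scale (SE 0.18, adjusted p = 0.0065). UTP20, a large scaffold protein of the early particle, read 7.94, 8.06 and 7.71 with the compounds, against 8.88, 8.11 and 8.82 with DMSO. The ET-770-DR experiment differed hardly at all, by -0.04, whereas the folds were 0.520 with ET-770 and 0.463 with RM. UTP20 fell by 0.70 (SE 0.19, adjusted p = 0.026), and without the ET-770 experiment by 0.58 (adjusted p = 0.080). All 3 are the longest members but one, with 276 kb for DDX10, 119 kb for NOL10 and 107 kb for UTP20.

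The small nucleolar ribonucleoproteins guide the chemical modification of the rRNA, box C/D particles for methylation of the ribose and box H/ACA particles for pseudouridine. Of the 6 core proteins measured, DKC1 alone passed the test. This pseudouridine synthase read 10.54, 10.31 and 10.93 with the compounds, against 9.77, 9.33 and 10.84 with DMSO. It was higher by 0.78, 0.99 and only 0.09, with a mean of 0.62 (SE 0.17, adjusted p = 0.027). The call was lost without the ET-770 experiment (adjusted p = 0.12) and without the ET-770-DR experiment (adjusted p = 0.13). Its partners GAR1, NHP2 and NOP10, which also belong to telomerase, did not pass.

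GAR1 read 8.54, 8.33 and 8.72 with the compounds, against 8.29, 7.75 and 8.55 with DMSO, a mean change of 0.33 (SE 0.13, adjusted p = 0.10). NHP2 read 10.19, 9.27 and 10.15 with the compounds, against 9.90, 8.79 and 10.01 with DMSO, a mean change of 0.30 (SE 0.13, adjusted p = 0.12). Its probes changed by 0.23, 0.40 and 0.09, and by 0.35, 0.55 and 0.20. NOP10 read 11.85, 10.66 and 10.55 with the compounds, against 11.68, 10.63 and 10.26 with DMSO, a mean change of 0.16 (SE 0.12, adjusted p = 0.44). All 3 partners were somewhat higher with every compound. FBL, the methyltransferase of the box C/D particle, read 12.07, 11.57 and 11.22 with the compounds, against 11.86, 11.22 and 11.11 with DMSO. Its mean change was 0.22 (SE 0.12, adjusted p = 0.26). NOP58, a scaffold protein of the same particle, read 10.94, 10.92 and 10.70 with the compounds, against 10.36, 9.86 and 10.70 with DMSO. The first 2 experiments differed by 0.58 and 1.06 and the RM experiment by 0.01, for a mean of 0.55 (SE 0.18, adjusted p = 0.057). Without the RM experiment NOP58 passed, with 0.82 (adjusted p = 1.4e-05). Over the 6 proteins the count was 4 without the RM experiment and 0 without either of the other experiments.

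The other members were placed in a group of other or unclear role. GPATCH4, a nucleolar protein with a G-patch domain, averaged 9.03, 8.59 and 8.03 over its 2 probes with the compounds, against 8.17, 7.49 and 7.46 with DMSO, and rose by 0.84 (SE 0.14, adjusted p = 0.0019). The probes did not move alike in the ET-770-DR experiment. One of them read 9.67 with ET-770-DR, against 7.65 with DMSO, a fold of 4.06, while the other read 7.51, against 7.32, a fold of 1.14. In the other experiments they were closer, with folds of 1.97 and 1.65 for ET-770 and 1.40 and 1.57 for RM. NOL3 carries a nucleolar symbol but is known as ARC, an inhibitor of apoptosis. It rose by 0.44 (adjusted p = 0.030), and not without the ET-770 experiment (adjusted p = 0.13) or without the ET-770-DR experiment (adjusted p = 0.10). NOL7 and NOP53 did not pass. NOL4 read 5.61, 5.14 and 5.18 with the compounds, against 5.75, 5.00 and 5.18 with DMSO, and its mean change was 0.00 (SE 0.12).

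NAT10, which acetylates cytosines of the 18S RNA, and HEATR1 also had mean changes near 0, but with differences in both directions. NAT10 read 10.34, 9.98 and 9.32 with the compounds, against 10.27, 9.64 and 9.81 with DMSO. Its mean change was -0.02 (SE 0.16), with 0.34 in the ET-770-DR experiment and -0.49 in the RM experiment. HEATR1 read 10.28, 10.28 and 9.64 with the compounds, against 10.26, 9.73 and 10.09 with DMSO, a mean change of 0.04 (SE 0.18). It was equal within 0.01 with ET-770, higher by 0.56 with ET-770-DR and lower by 0.45 with RM. A mean near 0 thus covered unlike responses to the compounds in these 2 genes.

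For the compounds one by one, no test was possible with 1 array per arm, and genes were counted past a fold of 1.5 in either direction. With ET-770, 14 of the 51 genes were over 1.5-fold, where 8.32% of all genes were, and 3 were under 0.667-fold, where 8.56% of all genes were. With ET-770-DR, 33 were over 1.5-fold (12.2% of all genes) and 1 was under 0.667-fold (10.4% of all genes). With RM, 3 were over 1.5-fold (6.21% of all genes), namely NOP2, UTP25 and UTP3, and 4 were under 0.667-fold (9.64% of all genes), namely DDX10, NOL10, UTP20 and RRP15. Over 2-fold were 1, 13 and 0 genes, where the shares of all genes were 2.01%, 3.84% and 0.668%, and halved or lower were 1, 0 and 3, where they were 4.68%, 4.94% and 4.28%. No gene of the set as averaged over its probes passed 3-fold or fell below 0.3333-fold, the limits that the study used, with any of the compounds. The study itself listed GPATCH4 as upregulated with ET-770-DR at 4.06, which is the fold of 1 of its 2 probes. The median log2 changes of the set were 0.40, 0.76 and 0.17, and those of all genes 0.02, -0.03 and 0.12.

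The compounds were given at different concentrations and in different experiments, so that their values stand side by side without a comparison of the compounds themselves. In 45 of the 51 genes the change was highest in the ET-770-DR experiment, intermediate in the ET-770 experiment and lowest in the RM experiment. The difference between the changes in the ET-770 and ET-770-DR experiments had a median of -0.36 over the set and 0.02 over all genes. Between ET-770 and RM it was 0.30 over the set and -0.04 over all genes, and between ET-770-DR and RM it was 0.67 and -0.07. The same order of medians was seen in 88 other ribosome biogenesis factors (0.48, 0.84 and 0.22), in 15 RNA polymerase I genes (0.69, 0.75 and 0.39) and in 56 ribosomal protein genes (0.18, 0.22 and 0.09). Across the 51 genes, the changes in the ET-770 and ET-770-DR experiments correlated with a Pearson r of 0.89 (Spearman rho 0.84), those with ET-770 and RM with 0.87 (0.70), and those with ET-770-DR and RM with 0.64 (0.46). These are descriptions over genes read on the same arrays. Of the 51 genes, 36 were higher with all 3 compounds (70.6%, where 29.6% of all genes were), 3 were lower with all 3 (5.88%, against 20.6% of all genes) and 12 were mixed.

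RRP15, a large subunit factor, had the widest spread between compounds. It read 7.50, 7.48 and 8.06 with the compounds, against 7.38, 6.42 and 8.66 with DMSO, so that it was 2.08-fold higher with ET-770-DR and at 0.658-fold with RM. As deposited, its DMSO levels ranged more widely than its compound levels, on array scales that differed between experiments. RRP12, which helps export the small subunit, changed by 0.40, 1.01 and -0.32. UTP6 and UTP18, of the early processome, were likewise higher with ET-770-DR (0.74 and 0.46) and lower with RM (-0.21 and -0.25).

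The level of the set before any compound also differed between experiments, as far as the scale of the arrays allows a comparison. As deposited, the DMSO array of the ET-770-DR experiment was lower than that of the ET-770 experiment by a median of 0.67 over the 51 genes, but over all genes the difference was nearly the same, -0.66. The DMSO array of the RM experiment was higher than that of the ET-770 experiment by 0.10 over the set, where all genes had -0.66, and higher than that of the ET-770-DR experiment by 0.71, where all genes had -0.01. After quantile normalization of the 6 arrays, the 3 differences of the set were 0.03, 0.58 and 0.47. The set thus started higher in the DMSO-treated cells of the RM experiment, relative to other genes, and this is also the experiment with its smallest change. The part of the starting level in the size of the change was not tested. Single genes differed more, with UTP3 higher by 2.08 and NOP10 lower by 1.43 in the DMSO array of the RM experiment than in that of the ET-770 experiment, as deposited.

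The length of a gene, taken as its span in RefSeq GRCh38.p14, varied with the change. Among members under 10 kb, 11 of 16 rose and 0 fell, with a median mean change of 0.58, and from 10 to 30 kb, 10 of 16 rose and 0 fell, with 0.57. From 30 to 100 kb, 3 of 15 rose and 0 fell, with 0.34. Above 100 kb there are 4 members, of which 0 rose and DDX10, NOL10 and UTP20 fell, with a median of -0.78. The fourth is NOL4, the longest at 374 kb, with signals of 5.00 to 5.75. Over all genes the shares that rose in these 4 classes were 15.7%, 22.3%, 8.93% and 0.545%, and the shares that fell were 1.14%, 1.39%, 8.79% and 47.7%. The fall of long members thus went with a fall of long genes over the whole array, and the rise of members up to 30 kb exceeded the share of all genes of that length. The counts of risen members up to 30 kb were 7 and 6 in the 2 classes without the ET-770 experiment, 7 and 5 without the ET-770-DR experiment and 14 and 14 without the RM experiment. From 30 to 100 kb they were 1, 1 and 11. Between 30 and 100 kb the median change of members was 0.36, 0.71 and -0.04 with the 3 compounds.

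**Figure D3:**
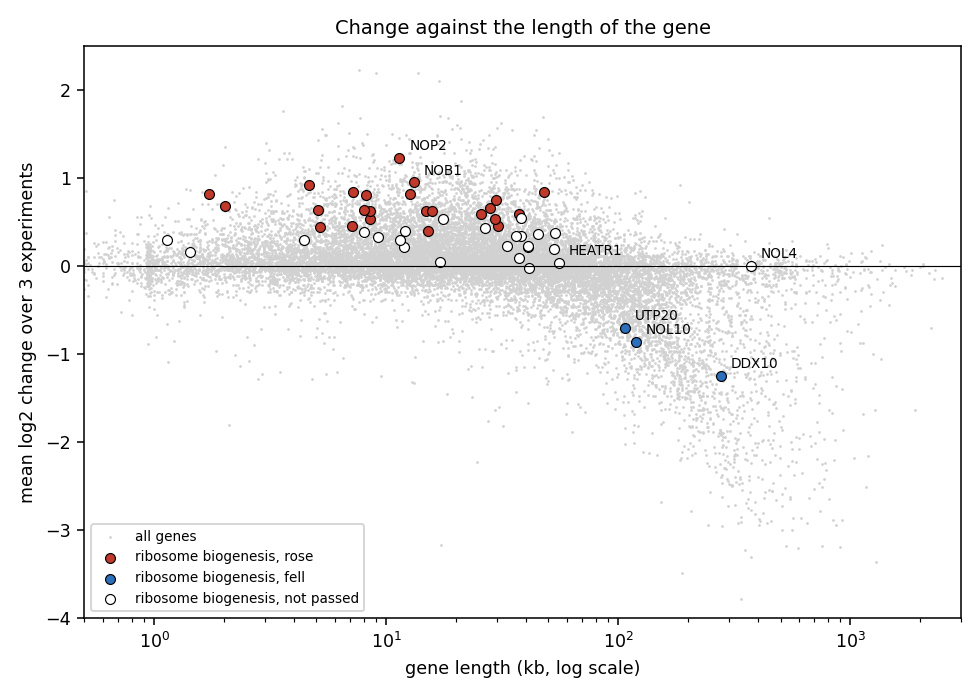
Mean log2 change over the 3 experiments (y axis) against the length of the gene in kb on a log scale (x axis) for all genes (grey points; those under 0.5 kb lie outside the axis) and for the ribosome biogenesis genes (large circles, filled red where they rose, blue where they fell and white where they did not pass). The 3 members that fell lie beyond 100 kb, and the other member of that length is NOL4.

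Across the 51 genes, the mean change correlated with the logarithm of the length at a Pearson r of -0.54 (Spearman rho -0.47), as a description over genes of the same arrays. The r was -0.52, -0.34 and -0.66 for the 3 compounds. Without the 4 members above 100 kb (n = 47), it was -0.26 for the mean and -0.19, 0.05 and -0.56 for the compounds, so that among members of ordinary length the relation was seen mainly with RM. Over all genes with a length (n = 18385), r was -0.40 for the mean change.

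Other genes of the pathway were listed by their known roles. Of 88 further ribosome biogenesis factors outside the set, 51 rose (58.0%) and 3 fell (3.41%), with a median mean change of 0.52. The count of risen genes was 32 without the ET-770 experiment, 23 without the ET-770-DR experiment and 67 without the RM experiment. BYSL, a small subunit factor, rose by 1.18 (SE 0.15, adjusted p = 0.00041), WDR74, a pre-60S factor, by 1.02 (SE 0.13, adjusted p = 0.00038), and NOLC1, a chaperone of small nucleolar ribonucleoproteins, by 0.99 (SE 0.16, adjusted p = 0.0018). The 3 that fell were AFG2A, RBM19 and MDN1, with mean changes of -1.08, -0.68 and -0.54. They are 396 kb, 150 kb and 177 kb long. When the ET-770 experiment was left out, AFG2A fell and RBM19 (adjusted p = 0.15) and MDN1 (adjusted p = 0.24) did not pass.

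Of 15 genes for RNA polymerase I and its factors, 10 rose (66.7%) and 1, TAF1B, fell (-0.46, adjusted p = 0.022), with a median of 0.61. POLR1C, a subunit shared with RNA polymerase III, rose by 1.34 (SE 0.15, adjusted p = 0.00026). RRN3, which recruits the polymerase to the promoter, rose by 0.81 (SE 0.14, adjusted p = 0.0021), and UBTF, which binds the promoter, by 0.54 (SE 0.12, adjusted p = 0.011). POLR1A, the catalytic subunit, changed by -0.08, 0.17 and -0.35 and did not pass. When the ET-770 experiment was left out, the counts were 6 and 0, with an adjusted p of 0.33 for TAF1B and 0.20 for UBTF. The 56 cytosolic ribosomal protein genes encode the building blocks that these factors assemble. Of these, 5 rose (8.93%, near the 13.1% of all genes) and 0 fell, and their median was 0.15. The risen genes were RPL32 (0.68), RPL23 (0.61), RPS24 (0.44), RPL13 (0.42) and RPS29 (0.41). The count was 2 without the ET-770 experiment, 2 without the ET-770-DR experiment and 12 without the RM experiment. Ribosomal protein genes have many near-identical pseudogene copies, which the probes may also read.

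**Figure D4:**
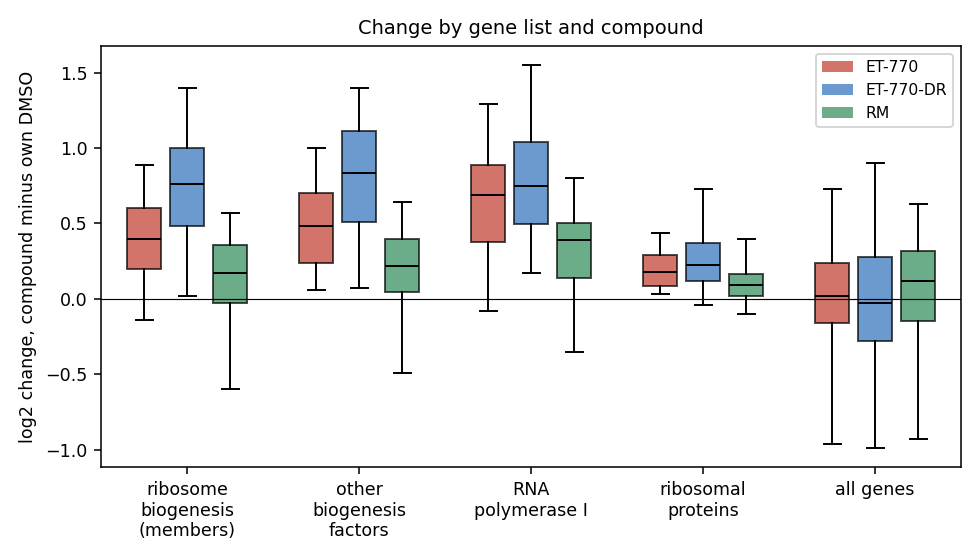
Log2 change, compound minus the DMSO array of the same experiment (y axis), for the 51 ribosome biogenesis genes, 88 other biogenesis factors, 15 RNA polymerase I genes, 56 cytosolic ribosomal protein genes and all genes (x axis), with a box for each compound. Boxes span the quartiles with the median as a line, and whiskers reach the 5th and the 95th percentile of the genes. The medians of the ribosome biogenesis genes are 0.40, 0.76 and 0.17, those of the ribosomal protein genes 0.18, 0.22 and 0.09.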

How the data were processed

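The values analysed are log2 signals, which the authors derived by RMA in Affymetrix Expression Console and deposited as 1 table of 33297 probes on 6 arrays. Whether the experiments were normalized together is not given in the sources used here. Probes with 1 gene symbol (19460) were averaged per gene to 18417 genes, and probes with several symbols (1754) or none (12083) were left out, so that NOP56 was not analysed here. RMA compresses the differences of dim genes.

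Each compound array was paired with the DMSO array that the labels assign to it. The deviations from the group means correlated at 0.83, 0.69 and 0.82 within the pairs and at 0.24 at most between them. For the shared response, limma 3.58.1 (R 4.3.3) was used (treatment and experiment, eBayes without trend, Benjamini-Hochberg adjustment, threshold 0.05). Standard errors are moderated, so each combines the spread of the gene between these 3 experiments with a spread estimated over all genes. Differences between the compounds count as spread. The p-values therefore do not measure the spread of a single gene alone. POLR1G, with changes of 0.93, 1.02 and 0.8, and NOL4, with -0.14, 0.14 and 0.0, were both given an SE of 0.12. With an experiment left out, the limma p-values rest on fewer pairs and on this shared spread. An example is the adjusted p of 1.4e-05 for NOP58 without the RM experiment. On simulated data of this design with 18417 genes, 100 of 100 genes changed by 1 and 37 of 100 changed by 0.5 were called. Beside these there were 23 false calls. Only these genes were changed, and the noise was drawn independently for each gene. In the data 2406 genes rose and 2065 fell, so the run does not give the power or the share of false calls here. The number of arrays limits the precision.

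The members and lists were chosen with earlier results of these data known. Values are given in full for the 16 members with the largest absolute mean change, those with 2 probes, the snoRNP proteins, the 3 with the smallest change and every member that fell, 27 in all, and other genes were named after their values were seen. DDX10 was moved from the large to the small subunit group after its values were seen, because of the role of its yeast counterpart. Alternatives were quantile normalization, no block, the highest probe, genes above the median level, a trend, other fold limits, the mean of the DMSO arrays, leaving out each experiment, and centring, which was added after seeing the data. Promoters and lengths are from RefSeq GRCh38.p14, the motifs were searched on both strands, and all 51 symbols matched. Summaries were computed in Python 3.11.15 (pandas 2.3.3) and plotted with matplotlib 3.10.9.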

Additional observations from a re-analysis of the deposited data

Results flagged for a closer look

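A common direction with every compound was more frequent in the set than over all genes. Of the 51 genes, 70.6% were higher with every compound and 5.88% lower, where 29.6% and 20.6% of all genes were. Opposite directions were thus less frequent in the set. All genes include many dimmer ones, with a median of 7.97 on the DMSO array of the ET-770 experiment, against 9.39 for the set. No comparison with genes of like level was made. In 12 of the 51 genes the signal changed in opposite directions between the experiments, in 23 pairs of compounds. In 5 of these pairs both changes were past 1.2-fold, each with 1 array pair, so that the difference was not tested. RRP15 was higher by 1.06 with ET-770-DR and lower by 0.60 with RM, a difference of 1.66 on the log2 scale. RRP12 was higher by 1.01 with ET-770-DR and by 0.40 with ET-770 but lower by 0.32 with RM, with differences of 1.33 and 0.72. For HEATR1 the difference between ET-770-DR (0.56) and RM (-0.45) was 1.01, and for NAT10 that between ET-770-DR (0.34) and RM (-0.49) was 0.82. All 4 genes are between 30 and 100 kb long.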

How the results depend on the processing

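Among the 51 genes, 24 rose and 3 fell. Without the replicate block, which pairs each compound with the DMSO array of its experiment, 0 rose and 0 fell (by limma without the block, 3 and 2 at an unadjusted p under 0.05). With each experiment left out in turn, 13 to 39 rose and 2 to 3 fell, and 14 of the 27 called genes kept their call every time. Quantile normalization (24 and 3), the highest probe (24 and 3) and genes above the median level (27 and 3) kept the counts within 1.5 times. So did a trend (29 and 3) and centring on the median of all genes (17 and 3, chosen after seeing the data). Like counts did not always mean the same genes. Centring lost the calls of BOP1, PES1, WDR12, DKC1, NOC2L, NOL12 and RRP9. Quantile normalization lost that of NOL3, and the test of genes above the median level lost that of RRP8. With quantile normalization, the highest probe, a trend and centring, 2538, 2398, 2794 and 1846 of all 18417 genes rose. In the same order, 2198, 2064, 2227 and 2092 fell. Of the 9208 genes above the median level, 2578 rose and 1685 fell. Of the other lists, leaving out an experiment gave 6 to 11 risen and 0 to 1 fallen RNA polymerase I genes, 2 to 12 risen ribosomal protein genes, and 23 to 67 risen and 1 to 3 fallen other biogenesis factors.

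Against the mean of the 3 DMSO arrays, 29, 11 and 15 genes were over 1.5-fold with ET-770, ET-770-DR and RM, with medians of 0.62, 0.28 and 0.46 beside 0.45, -0.25 and -0.13 over all genes, and 2 were under the limit with ET-770-DR. These counts carry the differences in scale between the experiments. The share of all genes past the limit was not computed for this setting, so the counts are not a result about the set. At 2-fold, 1, 13 and 0 were over and 1, 0 and 3 under, and at 3-fold 0 either way. Quantile normalization turned the median difference between the DMSO arrays of ET-770-DR and ET-770 to 0.03, and gave 0.58 for RM minus ET-770 and 0.47 for RM minus ET-770-DR. Of the single genes, HEATR1 turned to -0.0032 with quantile normalization and NOL4 to -0.04 with centring, and with an experiment left out HEATR1 ranged between -0.22 and 0.28, NAT10 between -0.20 and 0.21 and NOL4 between -0.07 and 0.07. None of these 3 genes passed the test under any alternative run. The cause of these shifts was not tested.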
